A study of Taeniopygia guttata with 2 samples.

Results

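The TNC-positive epithelial cells of the embryonic zebra finch gonad were taken as the cells that carried the gonadal epithelial genes EMX2 and LHX9 together with TNC, which encodes the matrix glycoprotein tenascin-C. Each cell had to hold at least 2000 UMIs (tags that each mark 1 captured RNA molecule) on at least 200 genes, with at least 2 UMIs each of EMX2, LHX9 and TNC. Dividing cells were left out by a sum of CDK1, UBE2C and TOP2A below 5 UMIs, supporting cells by a sum of SOX9 and DMRT1 of at most 1, interstitial cells by DCN of at most 1 and germ cells by DND1 of at most 2. This rule was met by 612 of 17054 barcodes that passed the minimum of UMIs and genes. The female pool gave 295 of its 7593 barcodes and the male pool 317 of its 9461. The levels of the 10 genes named in the rule chose the cells, so they are given as a description and were not tested.

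The gonads came from zebra finch embryos at HH stage 28 for which no treatment is named, and 7 female and 7 male embryos were pooled by sex before the tissue was dissociated with trypsin. Each pool gave 1 library of 3′ single-cell RNA on the 10× Chromium system, so single embryos could not be separated, and sex and library cannot be told apart. Barcodes that end in 2 were taken as female and those that end in 1 as male. Under this reading CYP19A1, the aromatase that makes estrogens, stood at 29.1 (female) and 1.27 CPM (male) in supporting cells, where CPM is the number of UMIs of a gene scaled to the total of UMIs.

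The gonadal surface epithelium arises from the coelomic epithelium that covers the genital ridge. It is known as a source of cells that move into the gonad, and EMX2 and LHX9 are transcription factors needed for its growth in the mouse. Tenascin-C is deposited around cells in growing and remodelling tissue and modulates their adhesion through integrins and other matrix proteins. RIPK4 is a kinase known from the differentiation of the mammalian epidermis.

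The sums over all barcodes were 98701138 UMIs for the female pool and 124217899 for the male pool. The TNC-positive cells had a median of 10020 (female) and 9346 UMIs (male), against 8711 and 8560 UMIs in the epithelial cells of the female and male pool without any TNC UMI. None of the 612 cells held more than 3 times the median of its library, no doublet caller was run, and none of their barcodes occurred in both libraries, while 18 of those that passed the minimum of UMIs and genes did. Levels below are CPM of the summed UMIs of all cells of a class in 1 library.

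The epithelial label was checked against marker genes. KRT18, a keratin of simple epithelia, stood at 263 (female) and 204 CPM (male) in TNC-positive cells, against 8.99 (female) and 7.07 CPM (male) in endothelial and 212 (female) and 193 CPM (male) in supporting cells of the same libraries. After every cell was thinned to 2000 UMIs, KRT18 was detected in 38.6% of the female and 32.8% of the male TNC-positive cells, against 0.909% and 1.41% of the female and male endothelial cells, whose median depth before thinning was 13351 and 13537 UMIs. The epithelial cadherin CDH1 was low, at 11.7 (female) and 8.75 CPM (male), and EPCAM stood at 30.1 (female) and 23.3 CPM (male). CYP19A1 was not seen, and a count of 3 UMIs would have been 0.971 CPM in female and 0.973 CPM in male members of the class. The summed level of 6 endothelial markers was 12.6 (female) and 16.5 CPM (male), that of 5 macrophage markers 24.0 and 31.5 CPM, that of 5 neural markers 26.2 and 17.8 CPM and that of 6 germ cell markers 25.9 and 50.6 CPM, each in the female and male cells. The germ cell markers include DND1, which the rule limited. The 3 steroidogenic markers summed to 81.2 (female) and 34.0 CPM (male) and the 3 mesonephric markers to 1.94 (female) and 6.81 CPM (male). The sums of 5 interstitial markers, 1114 (female) and 1256 CPM (male), and of 2 erythrocyte markers, 567 (female) and 843 CPM (male), were the highest of other cell types. KRT18 was thus above its endothelial level but near that of supporting cells, and the 5 epithelial markers together stood at 424 (female) and 318 CPM (male) in TNC-positive and 427 (female) and 303 CPM (male) in supporting cells, so these markers did not set the 2 classes apart.

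TNC reached a sum of 417 (female) and 450.3 CPM (male) in these cells, beside 67.5 (female) and 133 CPM (male) in dividing epithelial cells, 58.3 (female) and 54.8 CPM (male) in interstitial cells and 76.6 (female) and 66.3 CPM (male) in supporting cells. Only the TNC-positive cells had to hold TNC UMIs, so this gap follows from the rule and nothing is read from it. Without the TNC limit, non-dividing epithelial cells held a mean of 1.46 (female) and 1.93 (male) TNC UMIs per cell. Among the TNC-positive cells of the female pool 96 had 2 TNC UMIs, 62 had 3 and 137 had 4 or more, with a maximum of 20. Of those of the male pool, 104 had 2, 65 had 3 and 148 had 4 or more, with a maximum of 29. The middle 50% of single cells ran from 239 to 572 CPM for female cells and from 249 to 607 CPM for male cells, with medians of 341 and 355 CPM. After thinning to 2000 UMIs, TNC was still detected in 55.9% of female and 61.2% of male members, against 5.45% and 2.35% of female and male endothelial cells. The endothelial cells had no TNC limit, so this gap also follows from the rule. Just outside the limit lay 172 female and 147 male epithelial cells with exactly 1 TNC UMI.

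**Figure D1:**
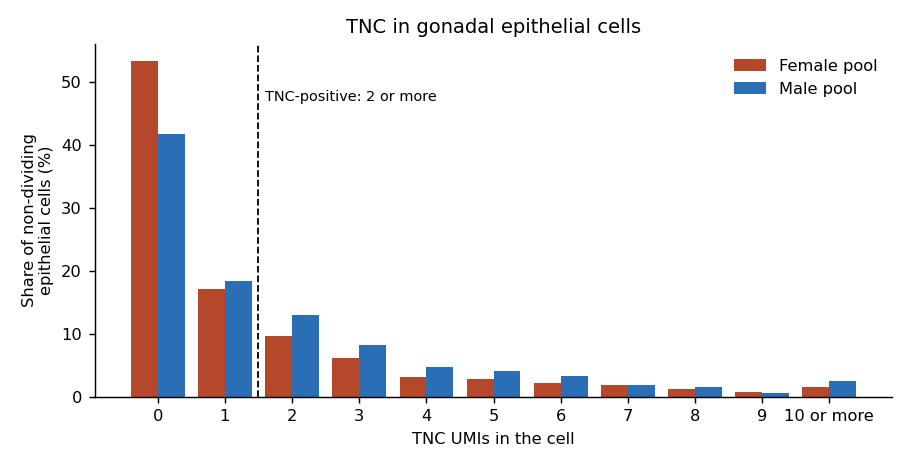
Share of non-dividing epithelial cells (y axis, percent) by the number of TNC UMIs in the cell (x axis), in the female pool (1002 cells) and the male pool (796 cells). The dashed line marks the limit of 2 UMIs, which 295 female and 317 male cells met. Cells without a TNC UMI were the largest class in both pools.

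The TNC-positive cells made up 29.4% (95% exact binomial interval 26.6 to 32.4) of the 1002 non-dividing epithelial cells of the female pool and 39.8% (36.4 to 43.3) of the 796 of the male pool. The intervals did not overlap, but they cover counting error only and no spread between embryos. After all cells were thinned to 2000 UMIs and selected by at least 1 UMI of EMX2, LHX9 and TNC, the shares were 15.8% in the female and 30.8% in the male pool. No TNC UMI was found in 53.4% of the female and 41.7% of the male epithelial cells.

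The TNC-positive class was first set against the TNC-negative epithelial cells, 535 female and 332 male, which met every other limit of the rule but held no TNC UMI. A cell in which no TNC UMI was counted can still hold TNC RNA. At an equal TNC level in all non-dividing epithelial cells of a pool, 25.5% (female) and 16.8% (male) would hold no TNC UMI, beside 53.4% and 41.7% seen. The comparison asks what else differs between epithelial cells with at least 2 TNC UMIs and those in which none was counted. Sums of UMIs per class and library were compared, with 5 classes in 2 libraries, and the 2 libraries served as the replicates. Without a term for the library, edgeR's quasi-likelihood test called 0 of 11781 genes (0%) at the threshold of 0.05 for the adjusted p, with 757 genes at an unadjusted p of at most 0.05 and a smallest adjusted p of 0.129. DESeq2 called 7 genes higher and 25 lower. Since both classes came from the same 2 pools, a second fit took the library as a block, and edgeR then called 64 genes (0.543% of those tested), 21 higher (0.178%) and 43 lower (0.365%) in TNC-positive cells.

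No gene could be named by the rule set for this comparison, which required a call in the fit without the block. The genes below passed the same rule in the fit with the library as a block, a choice made after their values were seen, and their fitted values are those of that fit. VIP, CHST11 and ENSTGUG00000029052 fell outside the rule and were likewise chosen after their values were seen, and PAPPA was named for its place beside TNC. Of the 21 higher genes, 20 were higher in both pools, and all 43 lower genes were lower in both. The blocked fit gives small p-values to genes whose class difference varied little between the pools. This agreement therefore largely follows from the choice of genes, and nothing is read from it. The changes were moderate, with a median size of 0.84 (log2) among the higher and 1.12 among the lower genes.

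**Figure D2:**
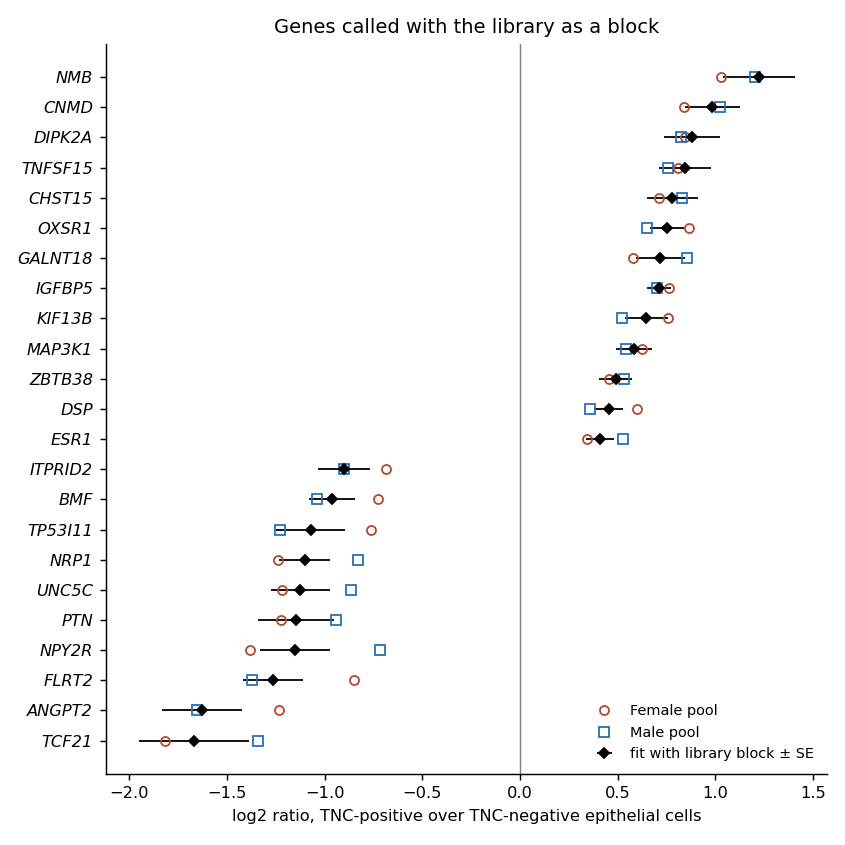
Log2 ratio of the summed level in TNC-positive over TNC-negative epithelial cells (x axis) for 23 genes called with the library as a block (y axis), as the ratio in the female pool (circles), in the male pool (squares) and as the fitted value with its SE (diamonds). All points of the 13 upper genes lie above 0 and all points of the 10 lower genes below 0, as the rule required the same direction in both pools.

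IGFBP5, which binds insulin-like growth factors in the matrix, stood at 507 (female) and 517 CPM (male) in TNC-positive cells, against 297 (female) and 317 CPM (male) in TNC-negative cells. It had the smallest adjusted p of the higher genes that were named (log2 fold change 0.71 ± 0.06 (SE), adjusted p = 0.00377). OXSR1, a kinase that regulates ion transporters, stood at 281 (female) and 256 CPM (male) in TNC-positive and 152 (female) and 161 CPM (male) in TNC-negative cells (log2 fold change 0.75 ± 0.09 (SE), adjusted p = 0.0121). In both genes the lower of the 2 TNC-positive sums was above the higher of the 2 TNC-negative sums. Both genes were chosen by these same sums, so nothing is read from this.

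DSP encodes desmoplakin, which ties desmosomes to keratin filaments. It stood at 1712 (female) and 1493 CPM (male) in TNC-positive cells and 1129 (female) and 1163 CPM (male) in TNC-negative cells (log2 fold change 0.45 ± 0.08 (SE), adjusted p = 0.0382). The receptor of estrogens, ESR1, stood at 372 (female) and 371 CPM (male) in TNC-positive and 292 (female) and 255 CPM (male) in TNC-negative cells (log2 fold change 0.41 ± 0.07 (SE), adjusted p = 0.0444). ESR1 was thus nearly equal in the 2 sexes among TNC-positive cells.

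The largest fitted rise among the named genes was that of NMB, the precursor of the peptide neuromedin B, at 51.5 (female) and 112 CPM (male) in TNC-positive and 22.7 (female) and 45.7 CPM (male) in TNC-negative cells (log2 fold change 1.22 ± 0.18 (SE), adjusted p = 0.0302). CNMD, the matrix glycoprotein chondromodulin, stood at 89.6 (female) and 74.6 CPM (male) in TNC-positive and 47.8 (female) and 34.1 CPM (male) in TNC-negative cells (log2 fold change 0.98 ± 0.14 (SE), adjusted p = 0.0226). CHST15, a sulfotransferase that acts on chondroitin sulfate, stood at 121 (female) and 98.9 CPM (male) in TNC-positive and 71.7 (female) and 53.6 CPM (male) in TNC-negative cells (log2 fold change 0.78 ± 0.13 (SE), adjusted p = 0.0382). CHST11, another sulfotransferase of chondroitin, was too low for the rule but was also called, at 32.4 (female) and 34.4 CPM (male) in TNC-positive and 14 (female) and 15 CPM (male) in TNC-negative cells (log2 fold change 1.18 ± 0.17 (SE), adjusted p = 0.0217). All 4 genes were higher in the TNC-positive class in each pool, which a call in the blocked fit favours.

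TNFSF15, a ligand of the tumour necrosis factor family, stood at 52.8 (female) and 73.9 CPM (male) in TNC-positive and 28 (female) and 41.6 CPM (male) in TNC-negative cells (log2 fold change 0.84 ± 0.13 (SE), adjusted p = 0.0322). In the gene order of a RefSeq annotation of another zebra finch assembly (bTaeGut7.mat), TNFSF15 is the second annotated gene to one side of TNC, with TNFSF8 between them. PAPPA, the next gene on the other side of TNC and a protease that cleaves IGF-binding proteins, stood at 54.4 (female) and 48.3 CPM (male) in TNC-positive and 22.1 (female) and 32.1 CPM (male) in TNC-negative cells and was not called (log2 fold change 0.93 ± 0.19 (SE), adjusted p = 0.082). Levels of TNFSF8 and of the other neighbours are not given here, and nothing is read from the gene order. The other named higher genes were DIPK2A, GALNT18, KIF13B, MAP3K1 and ZBTB38, with fitted log2 fold changes between 0.49 and 0.88. A gene without a symbol, ENSTGUG00000029052, was also called, at 1357 (female) and 1180 CPM (male) in TNC-positive and 671 (female) and 435 CPM (male) in TNC-negative cells (log2 fold change 1.21 ± 0.20 (SE), adjusted p = 0.0382).

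Among the lower genes were several transcription factors, secreted ligands and receptors. TCF21, a factor of visceral mesenchyme, stood at 14.6 (female) and 47 CPM (male) in TNC-positive cells and 63.8 (female) and 127 CPM (male) in TNC-negative cells (log2 fold change -1.67 ± 0.28 (SE), adjusted p = 0.0382). NR2F2, an orphan nuclear receptor known from interstitial cells of the gonad, stood at 580.3 (female) and 619 CPM (male) in TNC-positive and 918 (female) and 972 CPM (male) in TNC-negative cells (log2 fold change -0.68 ± 0.09 (SE), adjusted p = 0.0151). TCF21 and NR2F2 were both highest in interstitial cells, at 375 (female) and 414 CPM (male) for TCF21 and 2606 (female) and 2333 CPM (male) for NR2F2.

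PTN, the growth factor pleiotrophin, stood at 194 (female) and 169 CPM (male) in TNC-positive and 459 (female) and 328 CPM (male) in TNC-negative cells (log2 fold change -1.15 ± 0.19 (SE), adjusted p = 0.0382). ANGPT2, a ligand of the endothelial receptor TIE2, stood at 26.9 (female) and 30.2 CPM (male) in TNC-positive and 69.9 (female) and 105 CPM (male) in TNC-negative cells (log2 fold change -1.63 ± 0.20 (SE), adjusted p = 0.0125). VIP, the precursor of a neuropeptide, stood at 14.6 (female) and 7.13 CPM (male) in TNC-positive and 69.5 (female) and 40.3 CPM (male) in TNC-negative cells (log2 fold change -2.37 ± 0.25 (SE), adjusted p = 0.00914). Interstitial cells had 94.1 (female) and 122 CPM (male) of PTN and 9.71 (female) and 8.03 CPM (male) of VIP, below the TNC-negative level in both pools. ALDH1A2, which makes retinoic acid from retinaldehyde, stood at 255 (female) and 226 CPM (male) in TNC-positive and 355 (female) and 324 CPM (male) in TNC-negative cells (log2 fold change -0.53 ± 0.07 (SE), adjusted p = 0.0172).

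NRP1, a coreceptor of semaphorins and VEGF, stood at 46.9 (female) and 73.6 CPM (male) in TNC-positive and 118 (female) and 135 CPM (male) in TNC-negative cells (log2 fold change -1.10 ± 0.13 (SE), adjusted p = 0.0121). UNC5C, a netrin receptor, stood at 41.1 (female) and 60.3 CPM (male) in TNC-positive and 102 (female) and 114 CPM (male) in TNC-negative cells (log2 fold change -1.12 ± 0.15 (SE), adjusted p = 0.0172), and FLRT2, a membrane protein of cell guidance, at 27.8 (female) and 30.5 CPM (male) in TNC-positive and 54.1 (female) and 86.7 CPM (male) in TNC-negative cells (log2 fold change -1.27 ± 0.15 (SE), adjusted p = 0.0121). SLIT3, a ligand of ROBO receptors, was below the named size but was called too, at 22 (female) and 20.4 CPM (male) in TNC-positive and 50.7 (female) and 47.4 CPM (male) in TNC-negative cells (log2 fold change -1.23 ± 0.21 (SE), adjusted p = 0.0392). The neuropeptide Y receptor NPY2R, TP53I11, the apoptosis activator BMF and ITPRID2 completed the named lower genes, with fitted log2 fold changes between -1.15 and -0.90.

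The interstitial level was above the TNC-positive level in both pools for 33 of the 43 lower genes and for 0 of the 21 higher genes, beside 27.2% of all 11781 genes tested. The 43 and 21 genes were chosen by their TNC-positive levels, which this count uses again. The share over all genes is therefore no fair measure for them, and nothing is read from the count. The 5 interstitial markers summed to 1114 (female) and 1256 CPM (male) in TNC-positive and 1103 (female) and 1183 CPM (male) in TNC-negative cells, but their members did not move together. COL1A1 stood at 524 (female) and 661 CPM (male) in TNC-positive, 437 (female) and 435 CPM (male) in TNC-negative and 263 (female) and 275 CPM (male) in interstitial cells. COL1A2 stood at 487 (female) and 469 CPM (male) in TNC-positive and 553 (female) and 585 CPM (male) in TNC-negative cells, COL3A1 at 73.8 (female) and 88.2 CPM (male) in TNC-positive and 84.7 (female) and 116 CPM (male) in TNC-negative cells and POSTN at 7.44 (female) and 18.5 CPM (male) in TNC-positive and 10.1 (female) and 28.3 CPM (male) in TNC-negative cells, and the rule limited the fifth, DCN, in both classes. The median log2 fold change of the 4 tested was -0.30. Whether RNA from interstitial cells had a part in the lower genes was not tested. Hemoglobin RNA was uneven, with HBAD at 419 (female) and 627 CPM (male) in TNC-positive and 2790 (female) and 4589 CPM (male) in TNC-negative cells and no call (log2 fold change -2.84 ± 0.76 (SE), adjusted p = 0.162). In the TNC-negative class 4 cells carried most HBAD and HBAA UMIs, 82.6% in the female pool and 86.8% in the male one. Cells in which hemoglobin exceeded 1% of UMIs were then left out of every class. The TNC-negative class lost 2 female and 4 male cells, and the male supporting cells lost most, with 104. HBAD then stood at 482 (female) and 625 CPM (male) in TNC-negative cells. The blocked fit without these cells called 21 genes higher and 54 lower, among them all 64 genes called before. For 6 of the 43 lower and 1 of the 21 higher genes, none with a symbol, a single cell held more than 50% of the UMIs of a class. For the 6 lower genes this was so among TNC-negative cells in both pools, at 58.8% to 90.1% (female) and 90.6% to 96.9% (male). These 6 genes had the largest fitted falls, with log2 fold changes between -4.47 and -2.68. For the higher gene, 1 cell held 73.1% of the UMIs of male TNC-positive cells.

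The levels were also followed over the number of TNC UMIs per cell, with 0 and 2 or more UMIs as in the comparison above and the cells with exactly 1 UMI, which were in neither class, between them. The level of the cells with 1 UMI lay between the other 2 in both pools for 11 of the 14 higher and 9 of the 10 lower genes that passed the rule. These genes were chosen for the difference between the end classes and the bins use TNC itself, so the counts are a description from which nothing is read. Of all 11781 genes tested, 5.3% had such ordered levels upward and 3.58% downward in both pools. NR2F2 stood at 918, 702, 577, 569 and 587 CPM in female cells with 0, 1, 2, 3 and 4 or more TNC UMIs, and at 972, 834, 695, 647 and 557 CPM in such male cells. IGFBP5 stood at 297, 311, 414, 500.0 and 571 CPM in female cells of these bins and at 317, 421, 361, 481 and 635 CPM in male cells. NR2F2 levels thus differed mostly between 0 and 2 UMIs in the female pool and over the whole range in the male pool, and the IGFBP5 level was highest in the cells with most TNC in both. The median depth also differed between bins, at 8711, 9186.5, 9412.5, 9990 and 10718 UMIs in female and 8560, 8336, 9240, 9338 and 9697 UMIs in male cells, and its part in these levels was not tested. After all cells were thinned to 2000 UMIs before binning, the levels were ordered in both pools for 2 of the 14 higher and 3 of the 10 lower genes, of which 2 higher and 2 lower had been ordered before thinning.

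**Figure D3:**
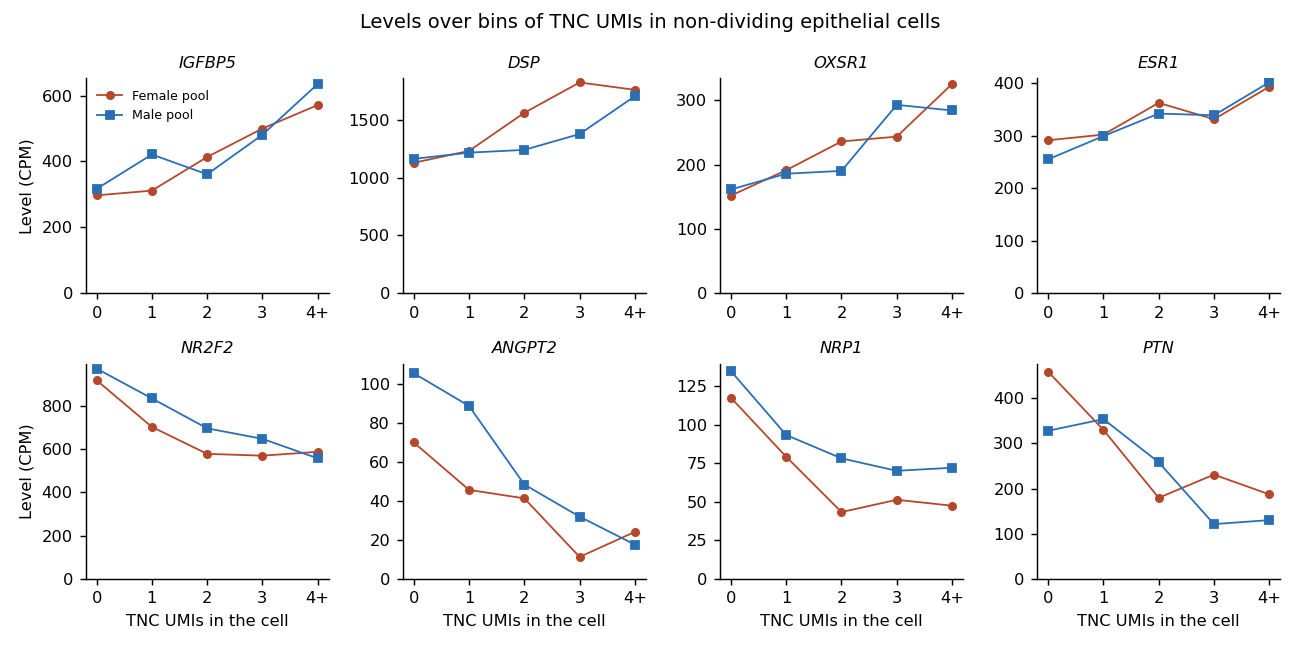
Level in summed UMIs (y axes, CPM, starting at 0) of 8 genes over bins of TNC UMIs per cell (x axes) in non-dividing epithelial cells of the female pool (circles) and the male pool (squares). The upper 4 genes were highest or near their highest level in cells with 4 or more TNC UMIs, and the lower 4 were highest in cells with 0 or 1.

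Between the 2 epithelial classes, no list of gonadal and epithelial genes held more than 2 calls in either direction in the blocked fit. Over all 11781 genes tested, 0.178% were called higher and 0.365% lower. The lists were chosen with earlier results of these data known, so nothing is read from their shares. With the library as a block, RIPK4 was not called, at 102 (female) and 94 CPM (male) in TNC-positive and 86.1 (female) and 59.4 CPM (male) in TNC-negative cells (log2 fold change 0.43 ± 0.19 (SE), adjusted p = 0.456). Of 13 tested genes of the RIPK4 pathway and of epidermal-type epithelium 1 was higher (DSP) and 0 lower, and of 19 gonadal progenitor factors 0 were higher and 2 lower (TCF21 and NR2F2). Of 27 ligands and growth factors of the germ cell niche 1 was higher (IGFBP5) and 2 lower (PTN and SLIT3), of 13 genes of the epithelial to mesenchymal transition 1 was lower (CDH11) and of 14 retinoic acid genes 1 was lower (ALDH1A2). None of the 17 basement membrane genes was called in this fit, where their median log2 fold change was 0.24 beside 0.00 over all genes tested. Other lists had medians as far from 0 in this fit. They were -0.32 in the collagen matrix, -0.43 in the transition and 0.25 in the RIPK4 pathway list. None of the 9 genes of gonadal epithelium and mesothelium and none of the 19 tested members of the tenascin list (family members, receptors and binding partners without TNC itself) was called either. The WNT (28 genes tested), BMP and TGF-beta (29), Notch (16), Hedgehog (6), DNA replication (23), polarity and junction (15), collagen matrix (15) and stress lists (19) had 0 calls each.

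The comparison with the 731 female and 925 male interstitial cells asks what separates the TNC-positive epithelium from the stroma below it. These cells were chosen by at least 2 DCN UMIs and at most 1 EMX2 UMI. edgeR without the block called 2299 of 11781 genes (19.5%), 915 higher (7.77%) and 1384 lower (11.7%) in TNC-positive cells. Fitted values against interstitial and supporting cells are from the fit without the block. With the library as a block it called 1623 higher (13.8%) and 2038 lower (17.3%), 31.1% in all. Scaling by library size in place of TMM gave 1200 higher and 1190 lower, so the balance of directions depended on the scaling, while none of the genes named here changed direction.

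**Figure D4:**
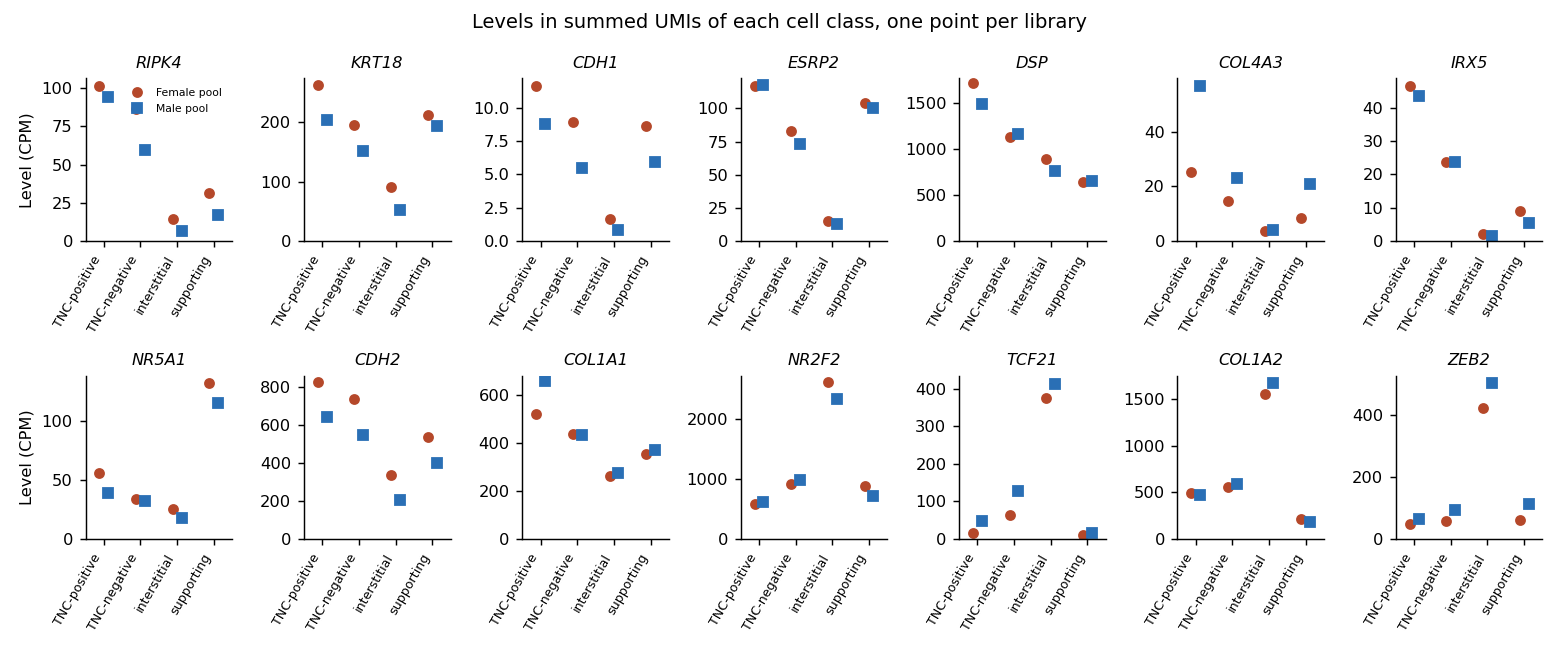
Level in summed UMIs (y axes, CPM, starting at 0) of 14 genes in TNC-positive epithelial, TNC-negative epithelial, interstitial and supporting cells, with 1 point for the female (circles) and 1 for the male pool (squares). RIPK4, KRT18, ESRP2 and CDH2 were higher in TNC-positive than in interstitial cells in both pools, and NR2F2, TCF21, COL1A2 and ZEB2 were lower.

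Among the 5 largest rises of genes of sufficient level were those of WNT16, EEF1A2, RIPK4 and ESRP2. The WNT ligand WNT16 stood at 349.5 (female) and 497 CPM (male) in TNC-positive and 29.1 (female) and 42.8 CPM (male) in interstitial cells (log2 fold change 3.47 ± 0.22 (SE), adjusted p = 1.03e-04). RIPK4 stood at 102 (female) and 94 CPM (male) in TNC-positive and 14.5 (female) and 6.34 CPM (male) in interstitial cells (log2 fold change 3.17 ± 0.42 (SE), adjusted p = 0.00157), and ESRP2, a splicing regulator of epithelial cells, at 117 (female) and 117 CPM (male) in TNC-positive and 15.5 (female) and 12.5 CPM (male) in interstitial cells (log2 fold change 2.99 ± 0.15 (SE), adjusted p = 7.16e-05). WNT16 and ESRP2 were also present in TNC-negative epithelial cells, with WNT16 at 312 (female) and 306 CPM (male) and ESRP2 at 82.9 (female) and 73.4 CPM (male). The translation factor EEF1A2 had 55.7 (female) and 92.7 CPM (male) in TNC-positive and 7.08 (female) and 7.89 CPM (male) in interstitial cells (log2 fold change 3.23 ± 0.29 (SE), adjusted p = 3.55e-04).

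The 5 largest falls were those of the collagen COL6A3, PI15, the integrin subunit ITGA4, FILIP1 and CA8. COL6A3 stood at 2.59 (female) and 1.62 CPM (male) in TNC-positive and 163 (female) and 177 CPM (male) in interstitial cells (log2 fold change -6.39 ± 0.53 (SE), adjusted p = 2.55e-04), and CA8 at 3.24 (female) and 3.57 CPM (male) in TNC-positive and 96.3 (female) and 86.2 CPM (male) in interstitial cells (log2 fold change -4.81 ± 0.24 (SE), adjusted p = 7.16e-05). The TNC-positive levels of all 5 were at most 5.84 CPM in both pools.

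Of 9 tested genes of gonadal epithelium and mesothelium 6 were higher and 0 lower than in interstitial cells, namely RIPK4, LRRN4, BNC2, CDH1, KRT19 and KRT18, with a list median of 1.50 (log2) beside -0.01 over all genes tested. KRT18 stood at 263 (female) and 204 CPM (male) in TNC-positive and 91.5 (female) and 52.8 CPM (male) in interstitial cells (log2 fold change 1.63 ± 0.27 (SE), adjusted p = 0.00472). CDH1 stood at 11.7 (female) and 8.75 CPM (male) in TNC-positive and 1.65 (female) and 0.845 CPM (male) in interstitial cells (log2 fold change 2.96 ± 0.44 (SE), adjusted p = 0.00279). UPK3B, a mesothelial uroplakin, was close to 0, and MSLN had no row of that symbol.

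The gonadal progenitor factors were split, with 6 of 19 higher and 10 lower (median -0.67). Higher were GATA4, WT1 and NR5A1, which drive gonad formation, and the homeobox genes IRX3, IRX5 and LHX2. NR5A1, the steroidogenic factor, stood at 56 (female) and 39.2 CPM (male) in TNC-positive and 25.3 (female) and 17.3 CPM (male) in interstitial cells (log2 fold change 1.09 ± 0.23 (SE), adjusted p = 0.0122), and IRX5 at 46.6 (female) and 43.4 CPM (male) in TNC-positive and 2.14 (female) and 1.41 CPM (male) in interstitial cells (log2 fold change 4.59 ± 0.32 (SE), adjusted p = 1.19e-04). Lower were GATA2, GATA6, NR0B1, OSR1, TBX18, TCF21, MEIS1, MEIS2, NR2F1 and NR2F2. NR0B1, an orphan receptor that represses NR5A1 activity, stood at 239 (female) and 182 CPM (male) in TNC-positive and 915 (female) and 874 CPM (male) in interstitial cells (log2 fold change -2.16 ± 0.21 (SE), adjusted p = 4.30e-04).

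Most partners of tenascin-C were lower in the TNC-positive epithelium than in the interstitial cells, with 12 of 19 lower and 1 higher (median -0.72). FN1, the fibronectin to which tenascin-C binds, stood at 179 (female) and 170.2 CPM (male) in TNC-positive and 375 (female) and 459 CPM (male) in interstitial cells (log2 fold change -1.33 ± 0.26 (SE), adjusted p = 0.0088). The integrin subunit ITGA9, a tenascin-C receptor, stood at 15.5 (female) and 13.3 CPM (male) in TNC-positive and 34.6 (female) and 38.2 CPM (male) in interstitial cells (log2 fold change -1.41 ± 0.41 (SE), adjusted p = 0.0434), ITGAV at 90.9 (female) and 92.1 CPM (male) in TNC-positive and 201 (female) and 184 CPM (male) in interstitial cells (log2 fold change -1.15 ± 0.32 (SE), adjusted p = 0.0395), and EGFR at 13.3 (female) and 6.81 CPM (male) in TNC-positive and 44.4 (female) and 29.3 CPM (male) in interstitial cells (log2 fold change -1.94 ± 0.39 (SE), adjusted p = 0.0108). The proteoglycan BCAN was the member that was higher, at 13.9 (female) and 18.2 CPM (male) in TNC-positive and 4.28 (female) and 9.16 CPM (male) in interstitial cells (log2 fold change 1.16 ± 0.34 (SE), adjusted p = 0.0464). TNC-negative epithelial cells had 19.5 (female) and 24.6 CPM (male) of BCAN. They had 197 (female) and 192.5 CPM (male) of FN1 and 84.1 (female) and 96.6 CPM (male) of ITGAV. These levels were thus not particular to the TNC-positive class.

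Of 17 basement membrane genes 10 were higher and 7 lower (median 0.44). Higher were the collagen IV chains COL4A3, COL4A4, COL4A5 and COL4A6, COL18A1, the laminin chains LAMA5 and LAMB2, AGRN, DAG1 and FREM2. Lower were the collagen IV chains COL4A1 and COL4A2, the laminin chains LAMA2, LAMA4 and LAMB1, NID1 and FREM1. COL4A3 stood at 25.2 (female) and 56.7 CPM (male) in TNC-positive and 3.79 (female) and 3.94 CPM (male) in interstitial cells (log2 fold change 3.32 ± 0.69 (SE), adjusted p = 0.0121), whereas COL4A1 stood at 74.4 (female) and 146 CPM (male) in TNC-positive and 294 (female) and 387 CPM (male) in interstitial cells (log2 fold change -1.71 ± 0.27 (SE), adjusted p = 0.0038). LAMA5 stood at 94.8 (female) and 53.2 CPM (male) in TNC-positive and 22.9 (female) and 12.8 CPM (male) in interstitial cells (log2 fold change 1.99 ± 0.40 (SE), adjusted p = 0.0105), and LAMA4 at 12.6 (female) and 15.9 CPM (male) in TNC-positive and 119 (female) and 137 CPM (male) in interstitial cells (log2 fold change -3.24 ± 0.32 (SE), adjusted p = 5.02e-04). The chains of one protein family thus went in opposite directions between the 2 classes.

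Of 15 genes of the interstitial collagen matrix 12 were lower (median -1.95), among them COL1A2, COL3A1, COL6A2, SPARC and POSTN. The 1 higher gene was COL1A1, at 524 (female) and 661 CPM (male) in TNC-positive and 263 (female) and 275 CPM (male) in interstitial cells (log2 fold change 1.06 ± 0.12 (SE), adjusted p = 7.09e-04), while COL1A2, which encodes the other chain of collagen I, stood at 487 (female) and 469 CPM (male) in TNC-positive and 1560 (female) and 1675 CPM (male) in interstitial cells (log2 fold change -1.83 ± 0.10 (SE), adjusted p = 8.02e-05). Of 13 genes of the epithelial to mesenchymal transition 7 were lower (median -1.84), with ZEB2, a repressor of epithelial genes, at 46.9 (female) and 62.9 CPM (male) in TNC-positive and 424 (female) and 504 CPM (male) in interstitial cells (log2 fold change -3.15 ± 0.33 (SE), adjusted p = 6.10e-04). CDH2, the N-cadherin gene, was higher, at 828 (female) and 643 CPM (male) in TNC-positive and 337 (female) and 206 CPM (male) in interstitial cells (log2 fold change 1.37 ± 0.29 (SE), adjusted p = 0.0126). Both keratins and N-cadherin were therefore higher in the TNC-positive class, while the mesenchymal VIM stood at 1505 (female) and 1355 CPM (male) in TNC-positive and 1603 (female) and 1626 CPM (male) in interstitial cells and was not called (log2 fold change -0.25 ± 0.12 (SE), adjusted p = 0.213).

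The counts of the signalling lists are given beside the shares over all genes tested, 7.77% higher and 11.7% lower. Of 29 BMP and TGF-beta genes 3 were higher and 11 lower (median -0.39). BMP7 stood at 30.7 (female) and 24.3 CPM (male) in TNC-positive and 9.55 (female) and 10.3 CPM (male) in interstitial cells (log2 fold change 1.40 ± 0.25 (SE), adjusted p = 0.00628), and the activin subunit INHBB at 30.7 (female) and 30.2 CPM (male) in TNC-positive and 4.94 (female) and 7.75 CPM (male) in interstitial cells (log2 fold change 2.17 ± 0.63 (SE), adjusted p = 0.045). BMP4 was the opposite, at 4.53 (female) and 3.89 CPM (male) in TNC-positive and 107 (female) and 113 CPM (male) in interstitial cells (log2 fold change -4.78 ± 0.36 (SE), adjusted p = 1.56e-04), and TGFB2 stood at 21 (female) and 38.9 CPM (male) in TNC-positive and 187 (female) and 218 CPM (male) in interstitial cells (log2 fold change -2.83 ± 0.45 (SE), adjusted p = 0.00373). Ligands of the same family were thus found at higher and at lower levels in the epithelium. TNC-negative epithelial cells had 32.2 (female) and 27 CPM (male) of BMP7 and 37.7 (female) and 22.5 CPM (male) of INHBB.

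Of 14 retinoic acid genes 4 were higher and 6 lower (median -0.78). ALDH1A2 stood at 255 (female) and 226 CPM (male) in TNC-positive and 153 (female) and 127 CPM (male) in interstitial cells (log2 fold change 0.71 ± 0.12 (SE), adjusted p = 0.0058), and CYP26B1, which degrades retinoic acid, at 20.7 (female) and 28.9 CPM (male) in TNC-positive and 2.96 (female) and 7.33 CPM (male) in interstitial cells (log2 fold change 2.16 ± 0.51 (SE), adjusted p = 0.0207). The related enzymes went the other way, with ALDH1A3 at 38.2 (female) and 26.9 CPM (male) in TNC-positive and 109.9 (female) and 151 CPM (male) in interstitial cells (log2 fold change -2.07 ± 0.24 (SE), adjusted p = 8.26e-04) and CYP26A1 at 0.647 (female) and 1.95 CPM (male) in TNC-positive and 52.7 (female) and 38.5 CPM (male) in interstitial cells (log2 fold change -5.19 ± 0.47 (SE), adjusted p = 3.51e-04). Of 28 WNT genes 2 were higher (LEF1 and WNT11) and 6 lower, of 16 Notch genes 0 were higher and 5 lower, and of 6 Hedgehog genes 0 were higher and 1 lower (BOC). WNT16 was not on the WNT list. Over all genes tested 7.77% were higher and 11.7% lower, and nothing is read from the counts of these short lists. Of 27 niche ligands and growth factors 2 were higher and 7 lower, with SEMA3A at 145 (female) and 117 CPM (male) in TNC-positive and 32.1 (female) and 25.6 CPM (male) in interstitial cells (log2 fold change 2.11 ± 0.21 (SE), adjusted p = 4.75e-04). Of 23 replication genes 0 were higher and 2 lower (CCND1 and CDKN1B), and of 19 stress genes 2 were higher (ATF3 and FOSL2) and 2 lower (DUSP1 and ZFP36L1).

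Of 13 genes of the RIPK4 pathway and of epidermal-type epithelium 5 were higher than in interstitial cells and 0 lower (median 0.75), namely RIPK4, DSP, ESRP2, ELF3 and KDF1. DSP stood at 1712 (female) and 1493 CPM (male) in TNC-positive and 885 (female) and 757 CPM (male) in interstitial cells (log2 fold change 0.89 ± 0.10 (SE), adjusted p = 7.46e-04). Of 15 polarity and junction genes 2 were higher and 0 lower, with AFDN, which links nectins to actin, at 475 (female) and 436 CPM (male) in TNC-positive and 222 (female) and 198 CPM (male) in interstitial cells (log2 fold change 1.04 ± 0.10 (SE), adjusted p = 4.65e-04) and NECTIN1 at 132 (female) and 122 CPM (male) in TNC-positive and 87.7 (female) and 87.1 CPM (male) in interstitial cells (log2 fold change 0.47 ± 0.10 (SE), adjusted p = 0.0142). TNC-negative epithelial cells had 438 (female) and 406 CPM (male) of AFDN.

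Supporting cells, the precursors of Sertoli and granulosa cells, were the third class compared, with 566 female and 2032 male cells that held at least 3 UMIs of SOX9 and DMRT1 together. edgeR without the block called 920 of 11781 genes (7.81%), 387 higher (3.28%) and 533 lower (4.52%) in TNC-positive cells, and 1043 higher (8.85%) and 1242 lower (10.5%) with the library as a block, 19.4% in all. Fitted on the 4 sums of these 2 classes alone, the test called 0 genes, with a smallest adjusted p of 0.0504. Scaling by library size in place of TMM gave 548 higher and 432 lower.

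The 5 largest rises were those of CHRNA4, WNT16, TNFSF15, RIPK4 and MSC. CHRNA4, a subunit of the nicotinic acetylcholine receptor, stood at 133 (female) and 244 CPM (male) in TNC-positive cells, against 30.2 (female) and 39.6 CPM (male) in supporting cells (log2 fold change 2.33 ± 0.36 (SE), adjusted p = 0.00885). WNT16 stood at 349.5 (female) and 497 CPM (male) in TNC-positive and 108 (female) and 86.9 CPM (male) in supporting cells (log2 fold change 2.03 ± 0.21 (SE), adjusted p = 0.00195), and RIPK4 at 102 (female) and 94 CPM (male) in TNC-positive and 31.7 (female) and 16.8 CPM (male) in supporting cells (log2 fold change 1.96 ± 0.39 (SE), adjusted p = 0.0202). RIPK4 and WNT16 were thus among the 5 largest rises in both comparisons with other cell classes, although they were not called against TNC-negative epithelium. MSC, the transcription factor musculin, stood at 143 (female) and 196 CPM (male) in TNC-positive and 37.2 (female) and 44.5 CPM (male) in supporting cells (log2 fold change 1.95 ± 0.20 (SE), adjusted p = 0.00199). TNC-negative epithelial cells had 151 (female) and 177 CPM (male) of MSC, so its level was not particular to the TNC-positive class.

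The 5 largest falls were those of the steroid reductase AKR1D1, the inhibin subunit INHA, MEOX1, the prohormone convertase PCSK2 and BTBD3. AKR1D1 stood at 37.2 (female) and 31.8 CPM (male) in TNC-positive and 584 (female) and 812 CPM (male) in supporting cells (log2 fold change -4.43 ± 0.19 (SE), adjusted p = 7.51e-05), and INHA at 11.7 (female) and 12.6 CPM (male) in TNC-positive and 82.1 (female) and 263 CPM (male) in supporting cells (log2 fold change -3.93 ± 0.64 (SE), adjusted p = 0.0104). CYP17A1, an enzyme of androgen synthesis, stood at 73.8 (female) and 32.7 CPM (male) in TNC-positive and 467 (female) and 381 CPM (male) in supporting cells (log2 fold change -3.07 ± 0.53 (SE), adjusted p = 0.0127). PAX2, a marker of early supporting cells in birds, stood at 6.8 (female) and 4.21 CPM (male) in TNC-positive and 24.9 (female) and 22.3 CPM (male) in supporting cells (log2 fold change -2.18 ± 0.49 (SE), adjusted p = 0.032).

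Against supporting cells the epithelial list gave 1 gene higher (RIPK4) and 1 lower (EPCAM) of 9 tested, with a median of 0.35 beside 0.00 over all genes tested. EPCAM stood at 30.1 (female) and 23.3 CPM (male) in TNC-positive and 145 (female) and 66.3 CPM (male) in supporting cells (log2 fold change -2.06 ± 0.43 (SE), adjusted p = 0.0247), and KRT18 at 263 (female) and 204 CPM (male) in TNC-positive and 212 (female) and 193 CPM (male) in supporting cells without a call (log2 fold change 0.12 ± 0.26 (SE), adjusted p = 0.853). Of the progenitor factors 5 of 19 were higher and 5 lower, with NR5A1 at 56 (female) and 39.2 CPM (male) in TNC-positive and 132 (female) and 115 CPM (male) in supporting cells (log2 fold change -1.46 ± 0.22 (SE), adjusted p = 0.00767) and NR0B1 at 239 (female) and 182 CPM (male) in TNC-positive and 84.6 (female) and 71.6 CPM (male) in supporting cells (log2 fold change 1.35 ± 0.20 (SE), adjusted p = 0.00819). NR5A1 was therefore above the interstitial and below the supporting level, and NR0B1 was below the interstitial and above the supporting level.

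Of the niche ligands and growth factors 4 of 27 were higher and 8 lower than in supporting cells (median -0.60). KITLG, the KIT ligand that germ cells use for survival in the mouse, stood at 30.4 (female) and 33.1 CPM (male) in TNC-positive and 15.8 (female) and 12.3 CPM (male) in supporting cells (log2 fold change 1.10 ± 0.16 (SE), adjusted p = 0.00626). IGFBP5, higher than in TNC-negative and interstitial cells, was lower here, at 507 (female) and 517 CPM (male) in TNC-positive and 1173 (female) and 1285 CPM (male) in supporting cells (log2 fold change -1.35 ± 0.09 (SE), adjusted p = 6.63e-04). PDGFA stood at 30.1 (female) and 28.5 CPM (male) in TNC-positive and 116 (female) and 256 CPM (male) in supporting cells (log2 fold change -2.76 ± 0.40 (SE), adjusted p = 0.00728). Of 28 WNT genes 1 was higher (WNT9A) and 7 lower, with WNT4, a factor of the female gonad, at 12 (female) and 5.19 CPM (male) in TNC-positive and 125 (female) and 28.7 CPM (male) in supporting cells (log2 fold change -3.21 ± 0.77 (SE), adjusted p = 0.0406).

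The calls of the remaining lists against supporting cells are given beside 3.28% higher and 4.52% lower over all genes tested. The collagen matrix list had 4 of 15 higher (COL1A1, COL1A2, COL3A1 and SPARC) and 2 lower (FBN2 and TIMP3), and the basement membrane list 2 of 17 higher (LAMA2 and AGRN) and 1 lower (FREM2). The BMP and TGF-beta list had 5 of 29 higher and 3 lower, the retinoic acid list 1 of 14 higher (ALDH1A3) and 2 lower (RDH10 and CYP26B1), and the Notch list 0 of 16 higher and 3 lower (HES1, HEY2 and JAG1). The tenascin list had 1 of 19 higher (BCAN) and 2 lower (EGFR and ITGB8), the RIPK4 pathway list 2 of 13 higher (RIPK4 and DSP) and 1 lower (PKP2), and the polarity list 2 of 15 higher (AFDN and PATJ) and 1 lower (CTNNB1). Of the transition genes 2 of 13 were higher (VIM and S100A4), of the replication genes 2 of 23 (UHRF1 and CDKN1B) and of the stress genes 2 of 19 (ATF3 and ZFP36L1), with 2 stress genes lower (HSPA5 and HSPA8), and none of the 6 Hedgehog genes was called. CTNNB1, the beta-catenin gene, stood at 265 (female) and 275 CPM (male) in TNC-positive and 727 (female) and 555 CPM (male) in supporting cells (log2 fold change -1.33 ± 0.13 (SE), adjusted p = 0.00159).

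Female and male TNC-positive cells were set side by side without a test, since each sex was 1 library. Of 2139 genes with at least 100 CPM in the higher sex, 7 (0.327%) were 2-fold or more higher in the female and 30 (1.4%) in the male cells, with 5 CPM added to each level. Levels carry 95% exact Poisson intervals, which cover counting error only.

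**Figure D5:**
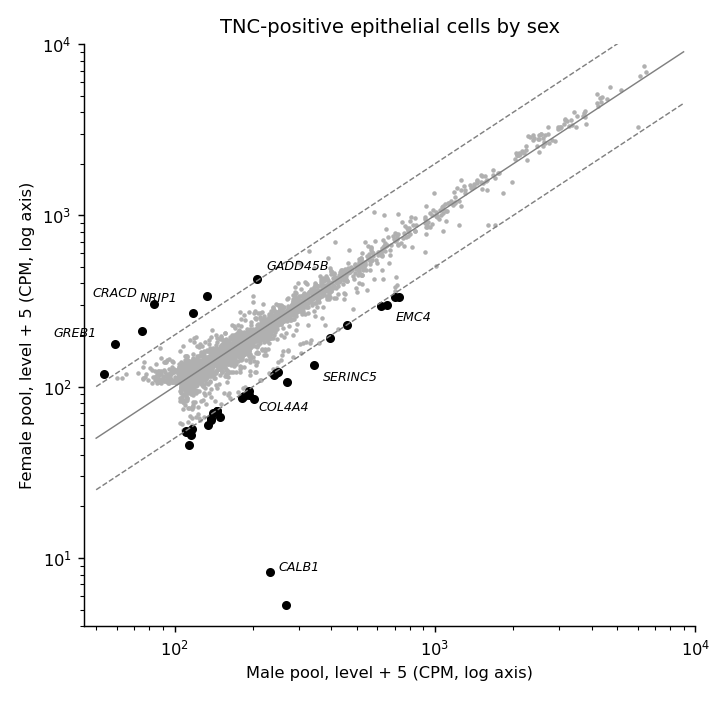
Level in female (y axis) against male (x axis) TNC-positive epithelial cells, in CPM with 5 added and on log axes, for the 2139 genes with at least 100 CPM in the higher sex. The solid line marks equal levels, the dashed lines 2-fold differences, and black points the 7 genes higher in female and the 30 higher in male cells.

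CRACD, a regulator of actin capping, stood at 297 CPM (278 to 317) in female and 78.1 CPM (68.6 to 88.7) in male TNC-positive cells, a log2 ratio of 1.86. Its ratio was 2.24 in TNC-negative, 1.70 in interstitial and 0.84 in supporting cells. GREB1 and NRIP1 are known as genes induced by estrogen receptor in human cells. GREB1 stood at 172 CPM (158 to 187) in female members and 53.8 CPM (45.9 to 62.7) in male ones, and NRIP1 at 264 CPM (246 to 283) in female members and 113 CPM (102 to 126) in male ones. The female to male log2 ratio of GREB1 was 1.59 in TNC-positive, 1.43 in TNC-negative, 1.23 in interstitial and 1.65 in supporting cells, so it was not confined to the TNC-positive class. MICAL2 (log2 ratio 1.15) and GADD45B (1.03) were the other named genes that were higher in female cells. In TNC-negative cells the ratios of NRIP1, MICAL2 and GADD45B were 0.93, 0.94 and 0.95.

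Among the genes higher in male cells, SERINC5 stood at 129 CPM (117 to 142) in female and 337 CPM (317 to 358) in male TNC-positive cells, a log2 ratio of -1.36. Its ratio was -1.25 in TNC-negative, -0.79 in interstitial and -1.10 in supporting cells. EMC4, a subunit of a membrane protein insertase, stood at 294 CPM (275 to 314) in female members and 648 CPM (620.3 to 678) in male ones. Its log2 ratio lay between -1.15 and -1.09 in all 5 classes. COL4A4 stood at 84.1 CPM (74.2 to 95.02) in female and 188 CPM (173 to 204) in male TNC-positive cells, a log2 ratio of -1.12, with -0.31 in TNC-negative, -0.20 in interstitial and -1.93 in supporting cells. FAM172A, SMC2, C1QTNF6, PNMT, MRPS30 and CCNH had log2 ratios between -1.35 and -1.11. They were also higher in male cells of the other classes, apart from PNMT in interstitial cells. CALB1 stood at 3.24 CPM in female members and 227 CPM in male ones, but 91.7% of its UMIs in male TNC-positive cells were in 1 cell.

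Within the TNC-positive class, other epithelial genes were detected in a part of the cells. Counting alone leaves genes of these levels unseen in many cells, so no difference between cells is read from the shares. After thinning to 2000 UMIs, RIPK4 was found in 20.3% (15.9 to 25.4) of the female and 16.4% (12.5 to 20.9) of the male cells, against 0.909% and 1.88% of the female and male endothelial cells. Without thinning it was found in 55.3% of the female and 45.4% of the male TNC-positive cells. KRT19 was found after thinning in 18.0% (13.8 to 22.8) of the female and 10.7% (7.54 to 14.7) of the male TNC-positive cells. Correlations with the TNC level over the 612 cells are given as a description, since the rule used TNC and left out cells with under 2 TNC UMIs. Among 3173 genes, NBL1, an antagonist of BMPs, had the highest Pearson r at 0.18, followed by COL4A5 at 0.16, EPHA4 at 0.16, IGFBP5 at 0.16 and ATP2B2 at 0.16. The TNC level itself had an r of -0.34 with the log of a cell's UMIs, which every cell level shares, and nothing is read from these values.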

How the data were processed

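The authors deposited UMI counts made with Cell Ranger 5.0.0, as whole numbers per gene and barcode over 20511 genes (9155 without a symbol), before cell calling and normalization, with the zebra finch reference bTaeGut1_v1. Barcodes were selected and classed by the limits given above, and counts were summed per class and library. The members and the 26 gene lists were chosen with earlier results of these data known. The 10 sums went into edgeR 4.0.16 under R 4.3.3, with filterByExpr for low counts, TMM scaling, the quasi-likelihood test and Benjamini-Hochberg adjustment, and DESeq2 1.42.0 was the alternative. The fit without the block was tested on simulated sums with a dispersion of 0.05, and the blocked fit was not. The dispersion fitted to the data without the block was 0.0324. The simulated sums held no difference between the pools, which the data do, so the counts below do not give the rate of calls in the data. Against simulated TNC-negative sums the fit without the block called 60 of 200 genes changed by 1 (log2) and 5 unchanged genes. With a change of 2 (log2) it called 197 of 200 and 14 unchanged genes. The genes of the rule were left out of the tests.

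The sums of all classes in 1 library come from the same pool, which gives the pairing. Over genes, the differences of female and male sums correlated between classes at 0.407 to 0.588. A replicate block by library was therefore added in a second fit. Because the 2 libraries were the replicates and differ in sex, p-values of the fit without the block measure the spread between these 2 pools only. The blocked fit takes out the mean difference between the pools. Its p-values measure only how far the class differences varied between these 2 pools.

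The named genes were those of the lists and, with a symbol, an adjusted p of at most 0.05, the same direction in both libraries and at least 50 CPM in both in the higher class, the 15 largest rises and 10 largest falls against TNC-negative cells and the 5 largest each way against the other classes. For the sexes they were the 10 largest folds each way with a symbol, and 10 genes by correlation with TNC. Tables used python 3.11.15, numpy 2.4.6, scipy 1.17.1 and pandas 2.3.3. Some genes that the rule named are not reported here. Doublets were not removed beyond the limits of the rule.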

Additional observations from a re-analysis of the deposited data

Results flagged for a closer look

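EEF1A2, named above for its level against interstitial cells, went in opposite directions in the 2 pools when TNC-positive were set against TNC-negative epithelial cells. The log2 ratio was -0.58 for female cells and 0.557 for male cells, and the difference was not tested, since each sex was 1 library.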

How the results depend on the processing

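Against interstitial and supporting cells, none of the named genes that were called changed direction under any alternative run. Against TNC-negative cells the unblocked fit called no gene, so a change of direction was counted only where the alternative run called the gene. None was found there, and the alternatives with 0 calls could not show one. The number of calls between TNC-positive and TNC-negative epithelial cells depended on the setting, with 0 in the unblocked fit. The library as a replicate block gave 21 higher and 43 lower. The block without hemoglobin-rich cells (chosen after seeing the data) gave 21 higher and 54 lower. Also without the block, DESeq2 gave 7 higher and 25 lower, and leaving out the filter on low counts 3 higher and 12 lower. A TNC minimum of 3 UMIs, again without the block, gave 2 higher and 2 lower. The other alternatives gave 0. Against interstitial cells the block gave 1623 higher and 2038 lower, and 1725 higher without hemoglobin-rich cells, and thinning every cell to 2000 UMIs gave 412 higher and 659 lower. Against supporting cells these settings gave 1043 higher and 1242 lower, 1056 higher and 1254 lower, and 226 higher and 278 lower, and the fit on the 4 sums alone called 0. With each library left out in turn only 1 sum per class was left, so no test was possible, and the log2 ratio of each gene named by the rule had 1 direction in both libraries in the comparison it was named for, as the rule required.

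The female and male members became 467 and 464 with a TNC minimum of 1 (46.6% and 58.3% of epithelial cells), 19.9% and 26.8% of epithelial cells with a minimum of 3, and 75 and 131 (15.8% and 30.8%) after thinning before selection. EMX2 and LHX9 minimums of 3 gave 192 female members and 44.0% of male epithelial cells, and minimums of 1 gave 34.5% of male epithelial cells. Genes 2-fold higher in female or male cells numbered 17 and 51 at 50 CPM, and 13 were higher in male with 20 CPM added. Over TNC bins 2 higher and 3 lower genes had ordered levels in thinned cells, of which 2 higher and 2 lower were ordered without thinning. Without thinning, KRT18 was found in 84.1% (female) and 71.0% (male) and RIPK4 in 55.3% (female) and 45.4% (male) of TNC-positive cells. The cause of these changes was not tested, except that thinning removes UMIs. Low genes, single embryos and the spread within a sex are beyond these 2 libraries.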
